A study of Mus musculus with 8 samples.

Results

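The core and naive pluripotency network was followed as 32 genes, chosen by symbol from a list of factors known to build or mark the pluripotent state, and all 32 were among the 24888 symbols of the count table. RNA was sequenced from 8 mouse libraries of the E14 embryonic stem cell line, 1 per group, so no group had a repeat. Blastoids are cultured aggregates built to resemble a blastocyst. Those of day 2 came from expanded potential stem cells (EPSC) transfected with an siRNA against Nr1h2 (siNr1h2), the gene of liver X receptor beta, or with a non-targeting siRNA (siNT), and were taken 48 hours later. Those of day 5 were hand-picked and are of 2 kinds, Type I and Type III, both labelled as made from EPSC treated with T09 (T0901317, a liver X receptor agonist). EPSC were kept for 5 passages in serum replacement with LIF, the GSK3 inhibitor CHIR99021, the MEK inhibitor PD0325901, JNK Inhibitor VIII, SB203580, A-419259 and XAV939. They were sequenced after 3 days with T09 and untreated, as were the embryonic stem cells (ESC), which were kept in serum with LIF, CHIR99021 and PD0325901. The media listed for blastoids contain FGF4, heparin and CHIR99021, later also BMP4 and A83-01, and name neither LIF nor PD0325901, nor T09.

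Pluripotency in mouse cells rests on Pou5f1 (also called Oct4) and Sox2, which bind DNA together, and on Nanog. Around them stands a naive circuit, in which Esrrb, Tfcp2l1, Klf2, Klf4, Klf5, Tbx3, Prdm14, Nr0b1 and Nr5a2 keep the state of the preimplantation epiblast under LIF signalling and with ERK signalling held low. When cells leave that state, the naive circuit is known to be shut down before Pou5f1, which stays on in the epiblast after implantation and goes down in trophectoderm and primitive endoderm. Other members are signals made by these cells (Fgf4, Gdf3 and the co-receptor Tdgf1), germline-linked proteins of the Dppa group, and widely used markers such as Zfp42 (also called Rex1).

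Promoter windows of 19 members were available in RefSeq (build GRCm38.p6, 250 bases before to 50 after a start), a later build than the mm9 named for the counts. These 4 are shown because Nanog and Zfp42 stand for members already lower at day 2, Tfcp2l1 for the member furthest below ESC in EPSC, and Lin28a for the member that was higher at both blastoid days. The 250 bases before the start are given 5′ to 3′, with matches in capitals, on either strand, to the Oct4-Sox2 composite (TTTGCATTACAATG with any base at position 8, counted from its 5′ end), the octamer ATGCAAAT or the Klf box GGGNGTGG.
Nanog (GRCm38.p6 chr6:122707239-122707488, plus strand): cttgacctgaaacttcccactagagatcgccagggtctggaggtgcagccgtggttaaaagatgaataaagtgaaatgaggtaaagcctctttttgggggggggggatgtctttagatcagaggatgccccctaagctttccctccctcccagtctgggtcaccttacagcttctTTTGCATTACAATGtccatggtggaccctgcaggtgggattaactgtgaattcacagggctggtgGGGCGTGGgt
Zfp42 (GRCm38.p6 chr8:43307010-43307259, minus strand): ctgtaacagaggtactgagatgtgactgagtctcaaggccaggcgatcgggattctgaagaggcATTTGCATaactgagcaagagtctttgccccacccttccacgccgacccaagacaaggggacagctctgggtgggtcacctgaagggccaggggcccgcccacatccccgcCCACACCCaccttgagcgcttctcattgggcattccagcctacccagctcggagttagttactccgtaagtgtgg
Tfcp2l1 (GRCm38.p6 chr1:118627695-118627944, plus strand): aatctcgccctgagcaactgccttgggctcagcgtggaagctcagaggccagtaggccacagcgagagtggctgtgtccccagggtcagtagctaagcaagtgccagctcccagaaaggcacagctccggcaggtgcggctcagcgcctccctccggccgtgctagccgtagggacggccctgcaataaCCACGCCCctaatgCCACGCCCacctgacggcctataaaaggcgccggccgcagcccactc
Lin28a (GRCm38.p6 chr4:134018817-134019066, minus strand): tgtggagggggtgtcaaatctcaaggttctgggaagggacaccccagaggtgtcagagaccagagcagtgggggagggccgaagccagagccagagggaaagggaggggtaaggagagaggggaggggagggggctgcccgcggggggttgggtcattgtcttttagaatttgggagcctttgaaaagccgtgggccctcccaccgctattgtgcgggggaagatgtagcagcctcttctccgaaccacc
The composite shares its first 7 letters with the octamer read on the opposite strand. The composite was found in 2 of 32851 windows of all genes, and both belonged to Nanog, which has a pair of overlapping windows. The octamer was found for Zfp42 and Zfp296 among the members, against 1.97% of 27025 genes with a window. The Klf box was found for 9 of the 19 members with a window, against 19.7% of all genes, and Tfcp2l1 carried it at positions -61 and -47 from the start. In Zfp42 the octamer and a Klf box both lay before the start, and in Lin28a none of these letters was found in the window. A match is a string of letters and not a measured binding site.

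Total counts ran from 24666260 to 40781415 per library, and levels are given as CPM, counts scaled to library size with TMM, a correction for library composition. Nr1h2 itself stood at 37.7 CPM in siNr1h2 and 53.9 in siNT blastoids. Primitive endoderm markers summed to 6146 CPM in siNr1h2 and 6469 in siNT day 2 blastoids and to 42851 in Type I and 25626 in Type III, against 1843 in T09-treated and 2009.5 in untreated EPSC. All 21 genes of that list rose at day 5 over EPSC, including Amn1, which is not an established marker of the lineage. Of the 21, 17 had enough counts to be tested in the ESC and EPSC libraries alone. The others could be tested only through their blastoid counts and could hardly be called lower. Trophectoderm markers summed to 348 and 355 CPM at day 2 (siNr1h2, siNT) and 1545 and 1751 at day 5 (Type I, Type III), against 203 and 202 in EPSC with and without T09. Krt8 and Krt18, keratins of simple epithelia in general, made up most of the day 5 sum, and the other 18 genes summed to 224 and 231 CPM in siNr1h2 and siNT and 275 and 348 in Type I and Type III, against 196 and 191 in EPSC with and without T09. Tfap2c, a transcription factor of that list named after its values were seen, was lower in blastoids, with 43.1 and 46.4 CPM in siNr1h2 and siNT and 19.5 and 28.1 in Type I and Type III, against 104 and 76.7 in EPSC with and without T09. Of this list Elf5, a trophoblast stem cell factor, had at most 13 counts in any library, while Krt18 reached 553 CPM in Type I and 648 in Type III. Cdx2, the homeobox factor of trophectoderm, had 29.8 and 31.5 CPM in siNr1h2 and siNT and 48.2 and 30.9 in Type I and Type III, against 1 and 2 counts in EPSC with and without T09. These are bulk samples, so fewer cells of a type and less RNA per cell cannot be told apart in any value that follows, and the part of changing cell composition in the results was not tested.

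Which members were lower by day 2, which only by day 5, and which in neither was read from the ratio of each blastoid library to EPSC, untreated EPSC for day 2 and T09-treated EPSC for day 5. A member was counted as lower when its level was at least 2-fold below that library, the 95% exact Clopper-Pearson counting interval excluded equality and either library had at least 20 counts. This rule is not a test, since each group is 1 library, and intervals cover counting error only. Of the 32 members, 13 were lower in both day 2 libraries, 11 were lower in neither day 2 library but in both day 5 libraries, 5 were lower in none of the 4, and 3 were lower in Type I alone. Among 13571 genes with enough counts the same shares were 9.34% for the first pattern, 6.66% for the second, 74.6% for the third and 9.36% for any other. By library, 13 members were lower in siNr1h2 and 13 in siNT over EPSC (background 11.9% and 11.3%), and 26 in Type I and 23 in Type III over T09-treated EPSC (background 18.1% and 16%). The split is by a threshold, and Tdgf1 stood just inside it at day 2, with log2 ratios of -1.05 and -1.02 in siNr1h2 and siNT, while Klf2 stood just outside, with -0.97 and -0.92.

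**Figure D1:**
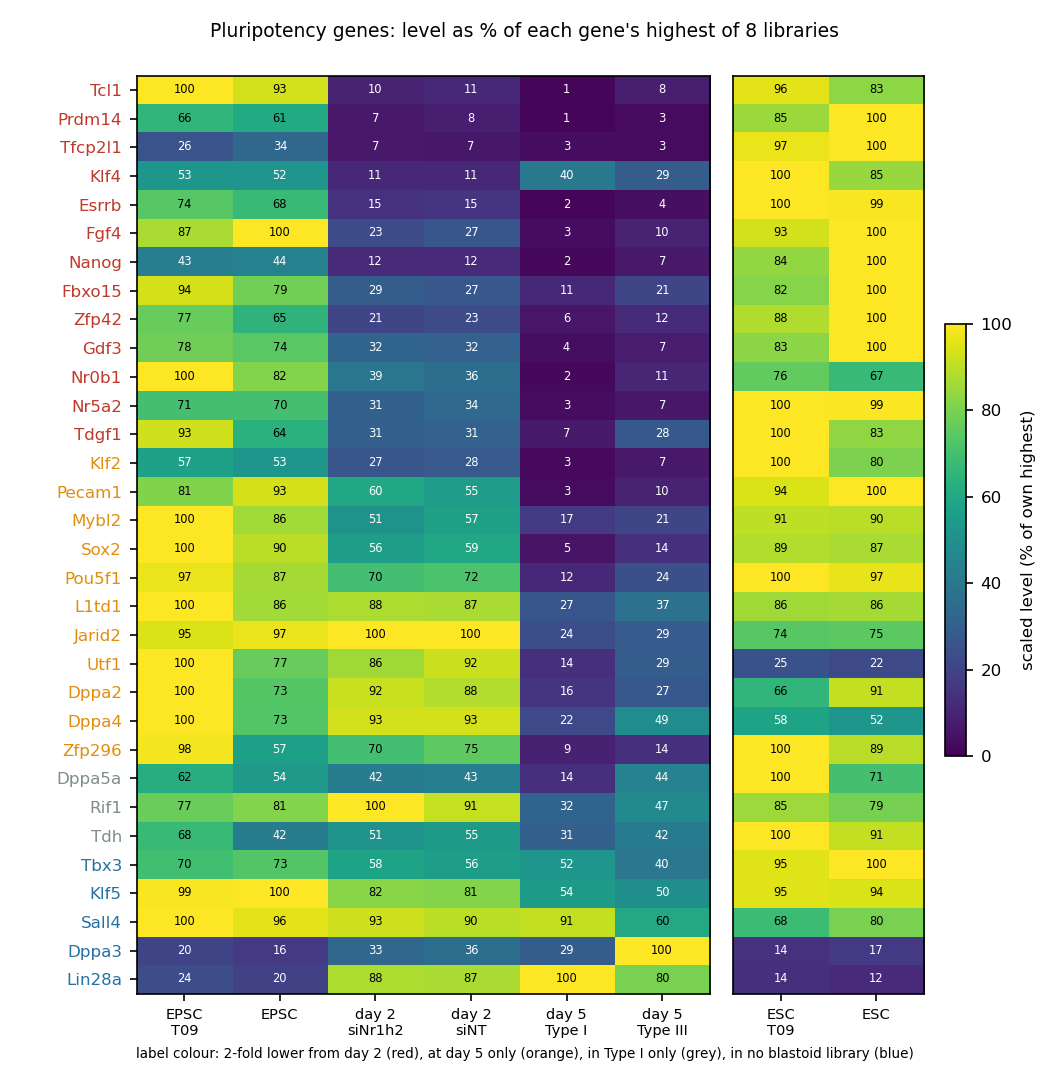
Level of each of the 32 genes in the 8 libraries (columns, 1 library each), as a percentage of that gene's own highest TMM-scaled level. Label colours give the pattern in blastoids, and among the 13 genes called lower at day 2 Klf4 is the 1 that was higher again at day 5.

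As a test over libraries, all 8 were put in 4 stages of 2 (ESC, EPSC, day 2, day 5) and fitted with edgeR's quasi-likelihood model, so that T09, the siRNA and the blastoid type stay in the spread within a stage. EPSC in this fit stands for both EPSC libraries, with and without T09, so its log2 changes are over both. Most levels are printed beside 1 of them, untreated EPSC for day 2 and T09-treated EPSC for day 5. The libraries of a stage are different conditions and not repeat cultures, and p-values do not cover the spread between separate experiments. In this fit 15 of 32 members fell and 1 rose at day 2 over EPSC at a Benjamini-Hochberg adjusted p under 0.05, against 18.2% of 15812 genes lower and 19.2% higher. At day 5 over EPSC 28 fell and 2 rose, against 28.2% lower and 30.3% higher of all genes. The median log2 change of the members was -0.63 at day 2 and -2.30 at day 5, where that of all genes tested was 0.01 and 0.02. Both comparisons share the EPSC libraries. Both day 2 libraries were transfected and no EPSC library was, and only the day 5 blastoids came from T09-treated cells, so stage, transfection and T09 history cannot be told apart. Without either Type I or Type III, more members were called at day 2 in both directions, and a larger share of all genes was called too.

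**Figure D2:**
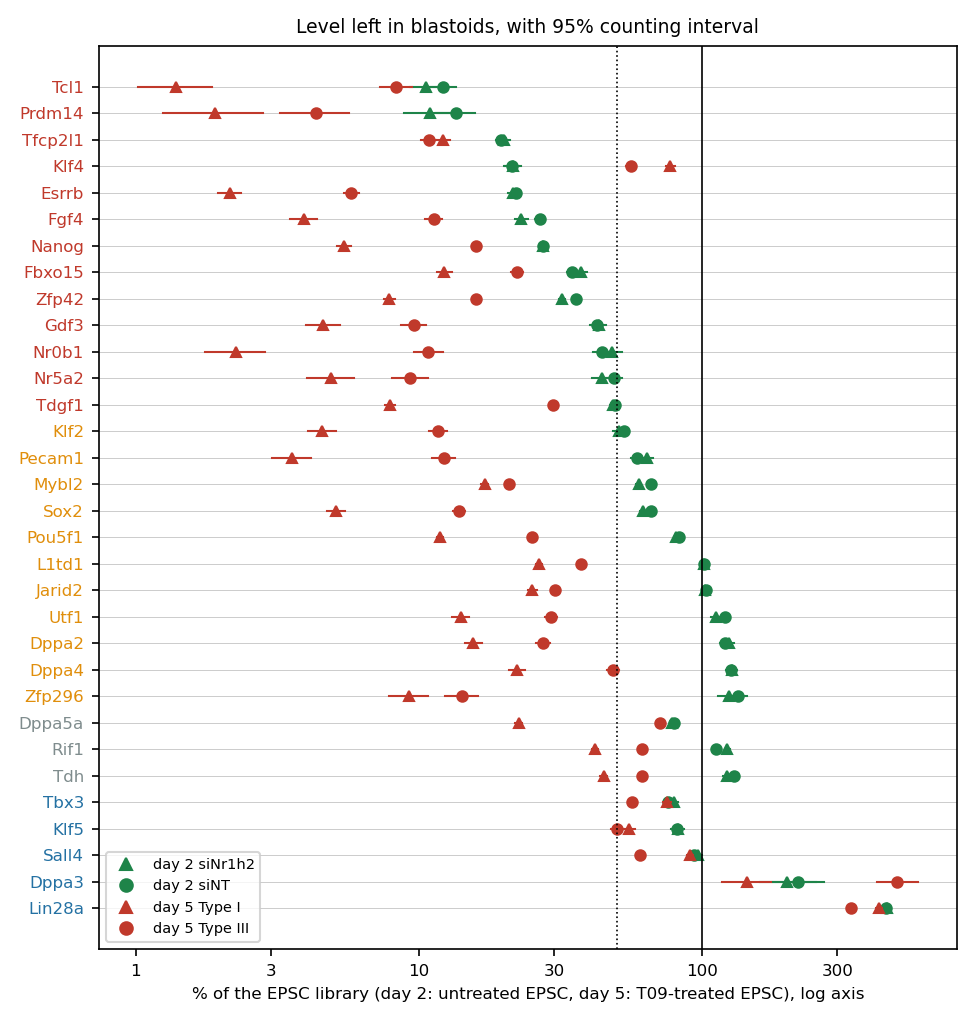
Level left in each blastoid library as a percentage of its EPSC library on a log axis, with 95% counting intervals, for the 32 genes (rows). Day 2 points (green) run from 10.6% (Tcl1, siNr1h2) to 448.6% (Lin28a, siNr1h2) of EPSC, and most day 5 points (red) lie further left, with Type I (triangles) mostly left of Type III (circles).

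Of the core triad Nanog fell at day 2 by the test. Pou5f1 and Sox2 were lower in both day 2 libraries than in untreated EPSC but did not pass. Pou5f1 stood at 973 CPM in siNr1h2 and 993 in siNT blastoids, against 1201 in untreated EPSC, so 82.7% of the level was left in siNT (81.6 to 83.8%). Its change at day 2 did not pass the test (log2 -0.33, SE 0.252, adjusted p = 0.329, edgeR quasi-likelihood). Sox2, its binding partner, stood at 249.6 and 267 CPM in siNr1h2 and siNT, against 403 in EPSC, or 61.9% and 66.2% of that level. Its change did not pass in this edgeR fit (log2 -0.68, adjusted p = 0.117), though it did with no filter on low counts. At a 1.5-fold threshold Sox2 counted as lower in both day 2 libraries. The spread in this fit includes that between Type I and Type III. In refits without Type I or without Type III, the day 2 log2 changes were -0.34 for Pou5f1 and -0.69 for Sox2. These sizes were nearly the same, but the failure of both genes to pass did not hold in either refit. Each such refit holds 1 day 5 library. Nanog, the homeodomain factor of the naive state, stood at 175 and 176 CPM in siNr1h2 and siNT, against 640.2 in EPSC. Nanog therefore kept 27.5% of its EPSC level in siNT (26.8 to 28.2%) and fell by the test (log2 -1.81, SE 0.354, adjusted p = 0.00285).

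At day 5 all 3 had fallen. Pou5f1 stood at 159.8 CPM in Type I and 336 in Type III, against 1344 in T09-treated EPSC, or 11.9% and 25.0% of that level. Sox2 stood at 22.9 CPM in Type I and 62.2 in Type III, against 449 in T09-treated EPSC, which left 5.09% and 13.8%. Nanog stood at 33.9 and 99.5 CPM in Type I and Type III, against 623 in T09-treated EPSC, which left 5.44% and 16.0%. Both day 5 libraries lay below both day 2 libraries for each of the 3 genes, an order not counted over all genes. By the test, 23.4% of all genes were lower at day 5 over day 2. The change of day 5 over day 2 in the same edgeR fit was -2.62 on the log2 scale for Sox2 (adjusted p = 0.000173), -1.9995 for Pou5f1 (adjusted p = 0.000187) and -1.41 for Nanog (adjusted p = 0.00782).

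Of the naive circuit, Esrrb, Tfcp2l1, Klf4, Prdm14, Nr0b1 and Nr5a2 were at least 2-fold lower in both day 2 libraries, and Klf2, Klf5 and Tbx3 were not. Prdm14, a repressor of FGF signalling and of de novo DNA methylation, stood at 3.85 CPM in siNr1h2 and 4.75 in siNT, against 35.2 in EPSC, and its change of -3.04 (log2, SE 0.252) had an adjusted p of 1.03e-05 by the edgeR fit. Esrrb, an orphan nuclear receptor, stood at 119.6 and 123 CPM in siNr1h2 and siNT, against 559 in EPSC (log2 -2.23, adjusted p = 0.00044). Tfcp2l1, a factor downstream of LIF and Wnt signalling, stood at 89.2 and 86.5 CPM, against 445 in EPSC (log2 -2.13, adjusted p = 2.31e-06). The nuclear receptor genes Nr5a2 and Nr0b1 were less far down, at 48.7% and 44.2% of EPSC in siNT. Scaled by library totals, neither was 2-fold lower in both day 2 libraries. At day 5 the levels left in Type I and Type III, relative to T09-treated EPSC, were 1.91% and 4.33% for Prdm14 (26 and 54 counts), 2.15% and 5.77% for Esrrb, and 12.2% and 10.8% for Tfcp2l1. Prdm14 and Esrrb were lower in Type I than in Type III, and Tfcp2l1 was not. Nr0b1, which is X-linked and also called Dax1, stood at 33.5 and 30.7 CPM in siNr1h2 and siNT, against 69.5 in EPSC, and at 1.92 and 9.22 in Type I and Type III, against 85.3 in T09-treated EPSC. Nr5a2, a nuclear receptor that binds the Pou5f1 promoter, stood at 28.3 and 31.2 CPM at day 2 (siNr1h2, siNT), against 63.9 in EPSC, and at 3.15 and 5.99 in Type I and Type III, against 64.2 in T09-treated EPSC. For both genes the day 5 libraries lay below the day 2 libraries, an order not counted over all genes. The further fall passed the test (day 5 over day 2, log2 -2.55 for Nr0b1 and -2.72 for Nr5a2).

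Among the Krüppel-like factors, which bind the same GC-rich box and overlap in function, Klf2 and Klf5 fell and Klf4 rose at day 5 over day 2. Klf2 stood at 94.7 CPM in siNr1h2 and 98.2 in siNT, against 186 in EPSC, and at 9.22 in Type I and 23.7 in Type III, against 203 in T09-treated EPSC. Klf4, a LIF-STAT3 target, stood at 36.6 and 36.4 CPM in siNr1h2 and siNT, against 171 in EPSC, and at 133 and 96.7 in Type I and Type III, against 172 in T09-treated EPSC. Klf4 was therefore low at day 2 and higher again at day 5. It was the 1 member that rose at day 5 over day 2 (log2 1.65, SE 0.157, adjusted p = 2.88e-05, edgeR quasi-likelihood), where 24 fell, against 25.6% of genes higher and 23.4% lower. Klf5, which is also used by trophectoderm, kept 82.1% in siNr1h2 and 81.3% in siNT relative to EPSC. At day 5 it kept 55.1% in Type I and 50.2% in Type III relative to T09-treated EPSC. Its day 5 change, under 2-fold, passed the edgeR test over EPSC (log2 -0.90, adjusted p = 3.52e-05) and over day 2 (log2 -0.66, adjusted p = 0.000524).

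**Figure D3:**
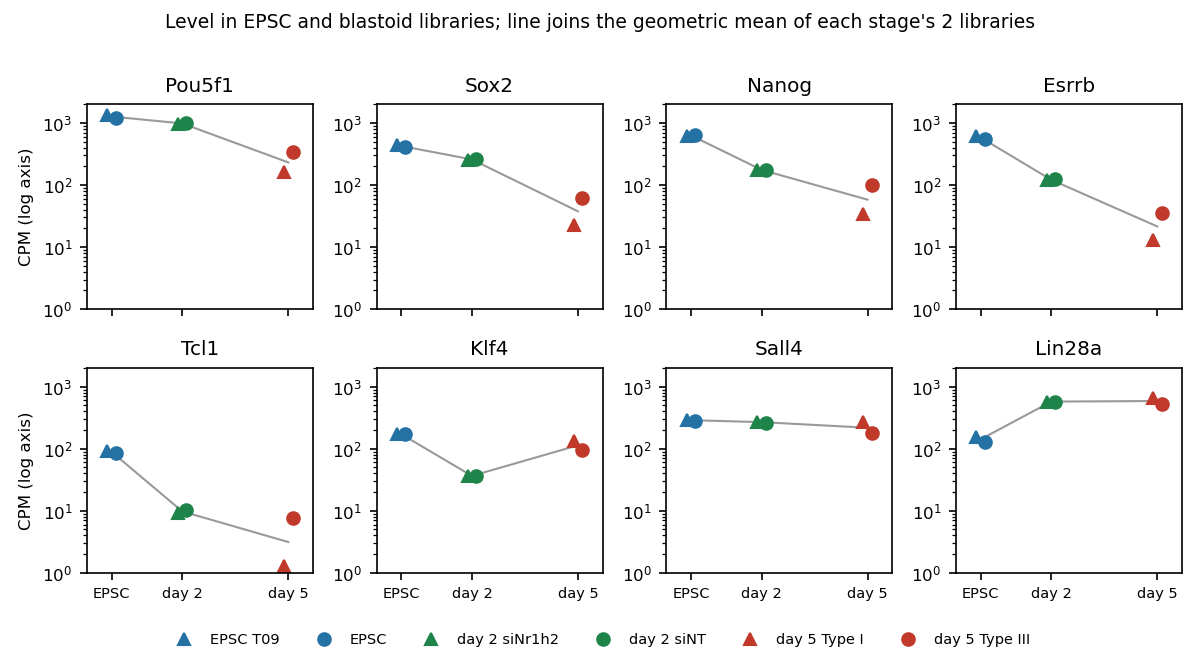
TMM-scaled CPM on a log axis of 8 genes in EPSC and in day 2 and day 5 blastoids, 1 point per library, with a line through the geometric mean of each stage's 2 libraries. Nanog, Esrrb and Tcl1 are low from day 2, Pou5f1 and Sox2 drop mainly at day 5, Klf4 dips at day 2, Sall4 stays within 2-fold and Lin28a is higher at both days.

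Among signals and receptors, Fgf4, the FGF ligand that these cells secrete, stood at 65.2 CPM in siNr1h2 and 76.0 in siNT, against 284 in EPSC (log2 -1.87, adjusted p = 0.00174). FGF4 protein is an ingredient of the blastoid media. Gdf3, a ligand of the TGF-beta family, stood at 55.9 and 55.1 CPM, against 129.7 in EPSC (log2 -1.22, adjusted p = 0.00269). Tdgf1, the Nodal co-receptor also called Cripto, stood at 278 and 284 CPM, against 574 in untreated and 835 in T09-treated EPSC. Its change over both EPSC libraries passed the test (log2 -1.29, adjusted p = 0.0414, edgeR). At day 5 Tdgf1 differed between the types, with 66.0 CPM in Type I and 249 in Type III, against 835 in T09-treated EPSC. Among the 15 members that fell at day 2, Tdgf1, Nr0b1 and Klf2 missed the test in edgeR refits without siNr1h2, without siNT or without T09-treated EPSC, and in some refits without an ESC library or untreated EPSC. DESeq2 did not call these 3 at day 2 either (adjusted p = 0.0930 for Tdgf1, 0.183 for Nr0b1 and 0.0787 for Klf2), and with library totals Tdgf1 and Nr0b1 missed the threshold (adjusted p = 0.0524 and 0.0532, edgeR). Tcl1, a co-activator of AKT kinase, had the lowest level relative to EPSC of all members at day 2, with 9.11 CPM in siNr1h2 and 10.5 in siNT, against 85.8 in EPSC (log2 -3.14, SE 0.485, adjusted p = 0.000689). Zfp42, the Rex1 marker gene, kept 32.0% and 35.7% in siNr1h2 and siNT, and Fbxo15, an F-box gene used as a reporter of pluripotency, kept 37.5% and 34.6%. Both fell by the test, with log2 changes of -1.65 and -1.56.

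Of these genes Fgf4, Gdf3, Zfp42 and Fbxo15 fell further at day 5 over day 2, with log2 changes of -1.92, -2.54, -1.29 and -0.82. Those of Tcl1 (-1.16, adjusted p = 0.0807) and Tdgf1 (-0.85, adjusted p = 0.132) did not pass edgeR's quasi-likelihood test, though both did with no filter on low counts and in limma-voom. Without Type III both passed (log2 -2.93 for Tcl1 and -2.09 for Tdgf1), and without siNr1h2 Fbxo15 lost its call (adjusted p = 0.06996, edgeR). Tcl1 stood at 1.28 CPM in Type I and 7.67 in Type III, against 92.2 in T09-treated EPSC. Fgf4 stood at 9.72 and 28.0 CPM in Type I and Type III, against 248 in T09-treated EPSC, and Gdf3 at 6.27 and 13.1, against 136. Each was lower in Type I than in Type III. Zfp42 stood at 64.9 CPM in Type I and 131 in Type III, against 825 in T09-treated EPSC, and Fbxo15 at 32.5 and 58.8, against 265. Over the 13 genes lower from day 2, the median level left was 27.3% in siNr1h2 and 27.5% in siNT, and 4.90% in Type I and 10.8% in Type III. Over the 11 at least 2-fold lower at day 5 and in neither day 2 library it was 102% in both day 2 libraries, 14.0% in Type I and 25.0% in Type III. Levels of these 11 in siNT ran from 52.8% (Klf2) to 133% (Zfp296), and Klf2 and Mybl2 fell at day 2 by the edgeR test. The medians describe how the groups were chosen and carry no test.

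Dppa2, Dppa4, Utf1, Jarid2, L1td1 and Zfp296, most of them chromatin proteins, were within 2-fold of EPSC at day 2 and lower at day 5. Dppa2 and Dppa4, which act as a pair on CpG-rich promoters, stood at 151 and 140.2 CPM in siNr1h2 and 146 and 139.8 in siNT, against 122 and 110.0 in EPSC. At day 5 Dppa2 stood at 25.8 in Type I and 45.4 in Type III, against 165 in T09-treated EPSC (day 5 over day 2, log2 -2.07, adjusted p = 0.00012). Dppa4 stood at 33.4 CPM in Type I and 73.0 in Type III, against 150 in T09-treated EPSC. With untreated EPSC as the baseline Dppa4 was not 2-fold lower in Type III. Utf1, a chromatin-bound protein, stood at 171 and 184 CPM at day 2 (siNr1h2, siNT), against 153 in EPSC, and at 28.0 and 58.5 in Type I and Type III, against 199.5 in T09-treated EPSC. Jarid2, an accessory subunit of Polycomb repressive complex 2, had a day 2 level of 103% and 103% of EPSC in siNr1h2 and siNT, and fell at day 5 over day 2 with a log2 change of -1.93 (SE 0.114, adjusted p = 3.54e-06). The RNA-binding protein gene L1td1 showed the same order, with 102% in siNT at day 2, and with 26.6% in Type I and 37.2% in Type III at day 5. Zfp296, a zinc finger gene, kept 133% in siNT, and 9.21% and 14.2% in Type I and Type III.

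Pecam1, the adhesion molecule of the inner cell mass, had the largest change of day 5 over day 2 among the 32 (log2 -3.18, adjusted p = 0.000138), with 4.51 CPM in Type I and 15.5 in Type III. Its day 2 levels were 93.5 CPM in siNr1h2 and 86.0 in siNT, against 146 in EPSC. Mybl2, the B-Myb factor of dividing cells, fell at both days, by a log2 change of -0.74 at day 2 (adjusted p = 0.00128), under 2-fold, and of -2.27 at day 5 (adjusted p = 3.57e-07).

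Rif1, a regulator of replication timing, Tdh, the mitochondrial threonine dehydrogenase, and Dppa5a, a small RNA-binding protein, were at least 2-fold lower in Type I and not in Type III. Rif1 kept 41.9% in Type I and 61.2% in Type III relative to T09-treated EPSC, and Tdh 45.0% and 61.3%. With untreated EPSC as the only baseline Tdh was at least 2-fold lower in no blastoid library. Dppa5a stood at 201 CPM in Type I and 635 in Type III, against 893 in T09-treated EPSC, and its change at day 5 over EPSC did not pass the test (log2 -0.97, adjusted p = 0.0523), though it did with both other scalings, with no filter and in limma-voom. Tdh fell at day 5 over EPSC (log2 -0.58, adjusted p = 0.0336), a call lost without siNr1h2, siNT, Type I or T09-treated EPSC.

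The 5 members at least 2-fold lower in no blastoid library were Sall4, Tbx3, Klf5, Dppa3 and Lin28a, of which Klf5 and Tbx3 fell by less and Dppa3 and Lin28a rose by the day 5 test. Sall4, a zinc finger factor that binds Pou5f1, stood at 273 and 264 CPM in siNr1h2 and siNT, against 282 in EPSC, and at 267 and 178 in Type I and Type III, against 294 in T09-treated EPSC. Its day 5 change did not pass the test (log2 -0.34, adjusted p = 0.114), though it did with no filter on low counts. Tbx3, a T-box factor used in the naive circuit and in endoderm, kept 75.3% in Type I and 56.7% in Type III, and fell by the test at day 5 over EPSC, under 2-fold (log2 -0.60, adjusted p = 0.00349). Lin28a, which blocks maturation of let-7 microRNAs, stood at 576 CPM in siNr1h2 and 573 in siNT, against 128 in EPSC, and at 657 in Type I and 525 in Type III, against 156 in T09-treated EPSC. All 4 blastoid libraries lay above all 4 stem cell libraries, an order not counted over all genes. Lin28a rose at day 2 (log2 2.05, SE 0.147, adjusted p = 3.95e-06, edgeR) and day 5 over EPSC (log2 2.09, adjusted p = 1.24e-06). Dppa3, the Stella protein that shields maternal methylation, was scarce, with 7.13 and 7.77 CPM in siNr1h2 and siNT, against 3.56 in EPSC, and with 6.35 in Type I and 21.6 in Type III, against 4.42 in T09-treated EPSC. It rose at day 5 over EPSC (log2 1.83, adjusted p = 0.00516), with Type III far above Type I.

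Scaled by exon length, so that genes can be set side by side, Dppa5a was the highest member in EPSC, at 1249.7 RPKM, a read density per exon length and library size, followed by Pou5f1 at 534, Zfp42 at 372 and Nanog at 286. Lin28a was number 26 of 32 there, at 32.1 RPKM. In Type I blastoids Dppa5a was again first at 324 RPKM, Lin28a was second at 164, and Nanog was number 15 at 15.1. These lengths are unions of GENCODE M21 exons, and the annotation behind the counts is not given in the sources used here. Mouse pseudogenes related to Pou5f1, Nanog, Dppa3 and Dppa5a exist, and how shared reads were assigned is not stated, so levels of these genes are less certain. Sox2 overlaps the long transcript Sox2ot, and how reads of that overlap were counted is not stated.

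Of the 32 members, 17 were at least 2-fold lower in Type I and 0 higher, against 5.75% of 13907 genes lower and 1.93% higher, and the median log2 ratio was -1.03 where that of all these genes was 0.01. Pou5f1 had a log2 ratio of -1.07 (interval -1.12 to -1.03), Nanog -1.55 and Sox2 -1.44. The members furthest below in Type I were Tcl1, with 46 counts in Type I and 252 in Type III (log2 -2.53, -3.07 to -2.12), and Nr0b1, with 69 and 303 counts (log2 -2.23, -2.66 to -1.88). Next came Tdgf1 (-1.91), Pecam1 (-1.77) and Dppa3 (-1.76). Set against the ratio of Pou5f1 in the same pair of libraries, Tcl1 was a further -1.45 on the log2 scale and Nr0b1 a further -1.16, while Esrrb differed from it by -0.35. Of the other members 13 lay below Pou5f1 and 18 above, Sall4 furthest above (1.66).

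Above 0 stood 6 members, Sall4 (0.59), Klf4 (0.46), Tbx3 (0.41), Lin28a (0.32), Tfcp2l1 (0.17) and Klf5 (0.13), each under 2-fold. In the same comparison 2 of 21 genes of the primitive endoderm list were at least 2-fold higher in Type I and 0 lower, with a median log2 ratio of 0.46, led by Col4a2 (1.11) and Col4a1 (1.01), the type IV collagen genes. Of 18 trophectoderm markers with enough counts 6 were lower in Type I, Hand1 furthest (-2.51), and 0 were higher. Of 14 formative genes 5 were lower, with Fgf5 at -1.63 and Otx2 at -1.36. The part of these markers in the members' ratios was not tested. There is 1 library of each type, so this difference has no replicate check and carries no p-value.

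**Figure D4:**
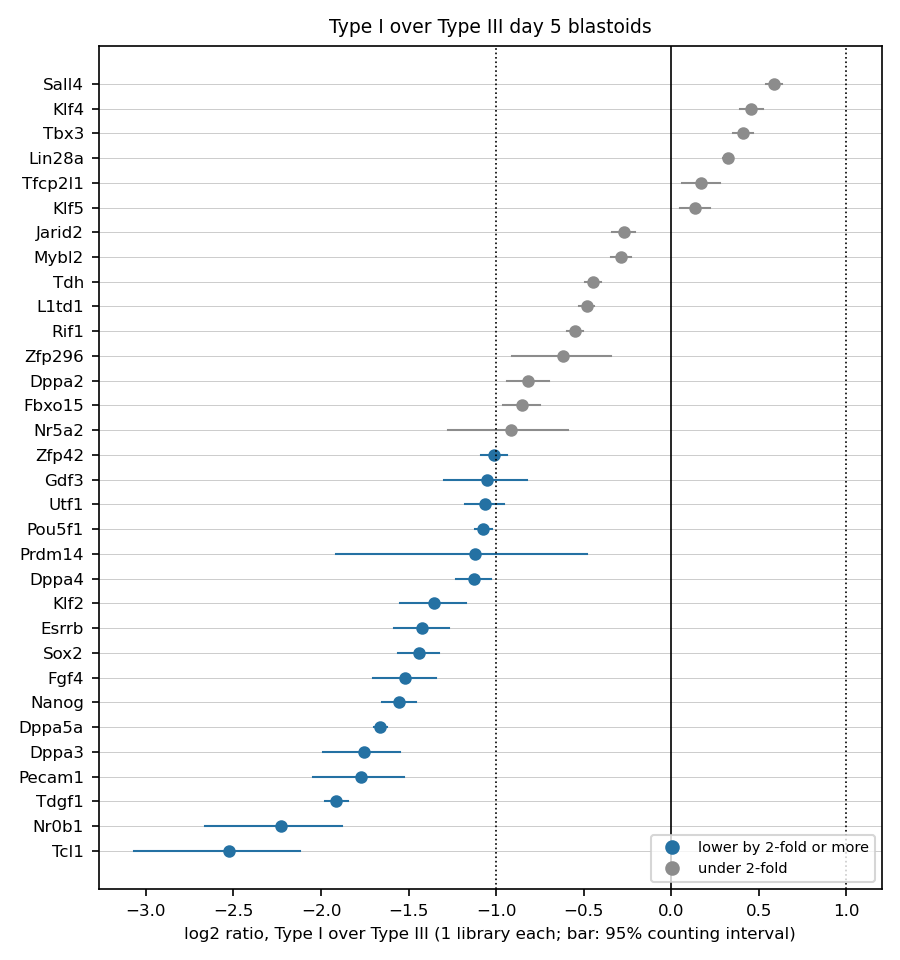
Log2 ratio of Type I over Type III day 5 blastoids for the 32 genes, with 95% counting intervals and dotted lines at 2-fold. The 17 blue genes are at least 2-fold lower in Type I, down to Tcl1, and 6 genes lie above 0.

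No member differed by 2-fold between the day 2 blastoids. Of the 32 members 0 were at least 2-fold higher or lower in siNr1h2 than in siNT, where 1.49% of 14127 genes were higher and 2.17% lower. The ratios ran from -0.30 for Prdm14 (101 and 187 counts in siNr1h2 and siNT, interval -0.67 to 0.05) to 0.13 for Rif1, with a median of -0.02. Fgf4 had a log2 ratio of -0.22 (-0.31 to -0.14) and Tcl1 of -0.20 (-0.44 to 0.03), and Pou5f1, Nanog and Klf4 were at -0.03, -0.01 and 0.01. With 1 library each, an effect of the siRNA and a difference between cultures cannot be told apart.

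ESC and EPSC, each with and without T09, were compared over 4 libraries by edgeR's quasi-likelihood test, with terms for cell state and for T09. In EPSC 11 members fell and 5 rose at a Benjamini-Hochberg adjusted p under 0.05, against 14.5% of 14477 genes lower and 14.3% higher. The fit has 1 residual degree of freedom and each state is 1 culture line. When the spread was taken from all 4 stages instead, 5 members fell and 3 rose, against 10.9% and 10.7% of 15812 genes. By the 2-fold rule 1 member was higher and 3 lower in untreated EPSC over ESC (background 9.58% and 8.05%), and 1 higher and 1 lower in the T09-treated pair (background 8.35% and 9.79%). The 8 members past the test with the wider spread were Tfcp2l1, Nanog, Tdh, Klf4 and Tbx3, which fell, and Utf1, Lin28a and Jarid2, which rose.

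Tfcp2l1 stood at 344 CPM in T09-treated and 445 in untreated EPSC, against 1282 in T09-treated and 1319 in untreated ESC, and was the member furthest down (log2 -1.74, SE 0.122, adjusted p = 1.45e-05). Nanog stood at 623 and 640.2 CPM in T09-treated and untreated EPSC, against 1219.6 and 1457 in T09-treated and untreated ESC (log2 -1.09, SE 0.114, adjusted p = 0.000131). For these genes both EPSC libraries lay below both ESC libraries, an order not counted over all genes. Klf4 stood at 172 and 171 CPM in EPSC with and without T09, against 328 and 277 in ESC (log2 -0.83, adjusted p = 0.000485). Tdh stood at 441 and 273 CPM in EPSC, against 649 and 588 in ESC, with a larger gap in the untreated pair (log2 -0.56 with T09 and -1.11 without). Smaller falls that passed were Klf2 (-0.72), Prdm14 (-0.55), Dppa5a (-0.55), Nr5a2 (-0.51), Esrrb (-0.50), Tbx3 (-0.46) and Zfp42 (-0.42).

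Utf1 was the member that rose most, with 199.5 CPM in T09-treated and 153 in untreated EPSC, against 50.3 and 43.9 in ESC (log2 1.88, SE 0.110, adjusted p = 5.10e-06). Lin28a stood at 156 and 128 CPM in EPSC with and without T09, against 89.6 and 80.3 in ESC (log2 0.73, adjusted p = 0.000822). Dppa4 (0.62), Sall4 (0.39) and Jarid2 (0.36) also rose. Pou5f1 (log2 -0.12, SE 0.110, adjusted p = 0.474) and Sox2 (log2 0.09, SE 0.105, adjusted p = 0.541) did not pass.

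**Figure D5:**
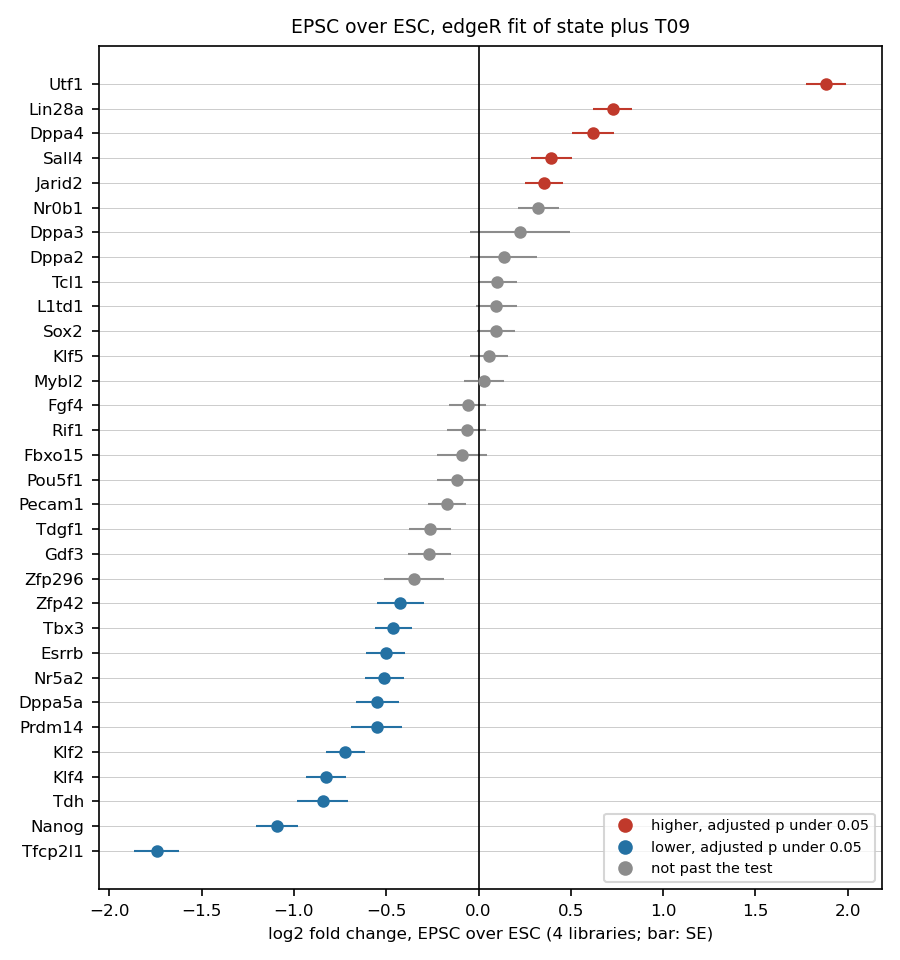
Log2 fold change of EPSC over ESC for the 32 genes from the edgeR fit of state plus T09 over 4 libraries, with standard errors as bars. Tfcp2l1 and Nanog lie furthest left and Utf1 furthest right, and 16 genes (grey) did not pass the test.

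No member passed the test for T09 in these 4 libraries. In edgeR's quasi-likelihood test 0 of 32 passed a Benjamini-Hochberg adjusted p under 0.05 and 6 had an unadjusted p under 0.05, against 0.104% and 6.07% of all genes, and DESeq2 and limma-voom also called 0. By the 2-fold rule 0 members differed in T09-treated over untreated EPSC, where 4.19% of 13632 genes did, and 0 in T09-treated over untreated ESC, where 3.91% of 13412 did. The highest ratio was that of Zfp296 in EPSC, with 53.6 CPM with T09 and 30.8 without (log2 0.80), next to 54.5 and 48.6 in ESC (log2 0.17). Tdh followed in EPSC (log2 0.69), then Tdgf1 (0.54). In ESC the highest was Dppa5a, with 1434 CPM with T09 and 1013 without (log2 0.50), and the lowest Dppa2 (-0.47). The 6 members with an unadjusted p under 0.05 were Zfp296, Tdh, Tdgf1, Dppa5a, Dppa4 and Utf1, with fitted log2 changes from 0.29 to 0.48, and their adjusted p was at least 0.534.

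Genes outside the 32 that work with the network were counted in the same fits, where 19.2% of all genes rose and 18.2% fell at day 2 over EPSC, 30.3% rose and 28.2% fell at day 5 over EPSC, 25.6% rose and 23.4% fell at day 5 over day 2, and 14.3% rose and 14.5% fell in EPSC over ESC. Of 27 partner factors and cofactors, 13 fell and 4 rose at day 2 over EPSC, and 23 fell and 1 rose at day 5, with median log2 changes of -0.38 and -1.12. Eras, a RAS-family gene of stem cells, had the largest change at both days (-3.35 and -4.69), and Tet1 and Tet2, which oxidise methylated DNA, were at -3.11 and -3.13 at day 5. Of 8 genes of the LIF input, 6 fell and 0 rose at day 2, led by the feedback inhibitor gene Socs3 (-3.19, adjusted p = 0.000149, edgeR) and Stat3 (-1.81, adjusted p = 4.90e-06). At day 5 over EPSC 6 fell and 2 rose. At day 5 over day 2, 3 rose and 1 fell. Stat3 was among those that rose (1.21, adjusted p = 6.46e-05), Pim1, a STAT3 target named after its values were seen, fell (-1.80, adjusted p = 1.60e-05), and Socs3 did not pass (-0.64, adjusted p = 0.201). Of 14 formative genes, which mark the next step towards the later epiblast, 9 rose and 1 fell at day 2, with Lef1 at 54.4 and 53.1 CPM in siNr1h2 and siNT, against 1.44 in EPSC. At day 5 over EPSC 6 of the 14 rose and 6 fell, and at day 5 over day 2 10 fell and 0 rose. Otx2, a formative factor named after its values were seen, stood at 64.7 and 62.7 CPM in siNr1h2 and siNT, against 21.2 in EPSC, and at 9.25 in Type I and 23.8 in Type III. In EPSC over ESC 4 of 13 tested formative genes rose and 1 fell, with Otx2 at 2.53 on the log2 scale. For the markers of other cell types that the aggregates could hold, 18 of 21 primitive endoderm genes and 12 of 18 tested trophectoderm genes rose at day 2, and 6 of 7 genes of the 2-cell-like state rose as well. The 3 trophectoderm genes that fell at day 2 were Lgals3 (-2.15), Tfap2c (-0.98) and Tead4 (-0.58), and of the primitive endoderm and 2-cell-like genes 0 fell. At day 5 over EPSC 21 of 21 primitive endoderm genes rose, and 12 trophectoderm genes rose and 2 fell. Of 9 mesoderm genes 5 rose at day 2 and 7 at day 5. Of 5 tested neuroectoderm genes 3 fell at each day, and 1 rose at day 5. Of 6 tested fibroblast genes 3 rose and 1 fell at each day. Fewer genes had enough counts to be tested in the ESC and EPSC libraries alone. These were 17 primitive endoderm, 14 trophectoderm, 13 formative, 6 mesoderm, 6 2-cell-like, 5 fibroblast and 3 neuroectoderm genes. The others entered the fit of all 8 libraries only through blastoid counts and could hardly be called lower than EPSC. The counts of genes that rose are therefore partly set by that filter. In EPSC over ESC 11 of 17 tested primitive endoderm genes rose and 1 fell, 7 of 14 trophectoderm genes fell and 4 rose, and 5 of 6 genes of the 2-cell-like state fell. Stat3, Foxd3 and Tcf7l1 each stand in more than 1 list.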

How the data were processed

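RNA-seq libraries of 8 groups, 1 each, were compared as raw counts per gene, as deposited by the authors in 1 table. The submitters' processing notes name STAR, HTSeq, Cuffnorm and the build mm9, and give no versions. Per the labels' protocols a directional kit was used. The strand setting and annotation are not given in the sources used here. Counts were scaled by TMM in edgeR 4.0.16 (R 4.3.3) and given as CPM. Ratios of 2 libraries used a prior count of 2 with an exact Clopper-Pearson interval at 95%. The state fit (ESC and EPSC, with and without T09, 14477 genes) and the stage fit (8 libraries, 15812 genes) used edgeR's quasi-likelihood test on genes that passed filterByExpr, with Benjamini-Hochberg adjustment over all genes and 0.05 as the threshold. They left 1 and 4 residual degrees of freedom. Nothing in the labels says that libraries of a stage came from separate cultures. Alternatives were RLE and library-total scaling, no filter, DESeq2 1.42.0, limma 3.58.1 (voom), other thresholds and baselines, and, chosen after seeing the data, stage fits without each library. The fits were tested on simulated data. Total counts were 24666260 to 40781415, which limits members with few counts. Every member was reported; of other lists up to 4 genes with the largest ratio were named, and any other was chosen after its values were seen. The 32 members and the lists were chosen with earlier results of these data known.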

Additional observations from a re-analysis of the deposited data

Results flagged for a closer look

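For 7 members the ratio of T09-treated over untreated libraries lay on opposite sides of 0 in EPSC and in ESC, with both 95% counting intervals excluding 0. The share of all genes with such opposite ratios was not counted. These intervals cover counting error only, and not the spread between cultures. The difference between the states was not tested, since each state has 1 library with T09 and 1 without. Dppa2, the partner of Dppa4, had a log2 ratio of 0.44 in EPSC and -0.47 in ESC, the widest gap of the 7. Fbxo15 had 0.25 in EPSC and -0.29 in ESC, and Zfp42 had 0.24 and -0.19. Prdm14 had 0.11 in EPSC and -0.24 in ESC, Gdf3 0.0711 and -0.28, and Sall4 0.0594 and -0.22. Rif1 went the other way, with -0.0749 in EPSC and 0.11 in ESC. All of these ratios were under 2-fold.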

How the results depend on the processing

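Scaling was varied for every comparison, the low-count filter and the tool (DESeq2, limma-voom) for the fits, and the fold threshold and count minimum for the ratios of 2 libraries. Other covariates or libraries were tried for EPSC over ESC, and other baselines for the patterns. Leaving out a library was run for the 3 stage comparisons and not for EPSC over ESC or T09. No paired analysis was possible because each group is 1 library and the labels carry no replicate numbers. With the spread of the 8-library stage fit, EPSC over ESC gave 3 higher and 5 lower members, and by the 2-fold rule 1 higher and 3 lower in the untreated pair, and 1 higher and 1 lower in the T09-treated pair. With no filter on low counts 2 members rose at day 2 over EPSC and 2 at day 5 over day 2. In these fits 32.3% and 40% of all genes were called in either direction. Library totals put 6 members in no pattern, against 9.59% of all genes, with Nr0b1, Nr5a2 and Klf5 among them. Tdgf1 moved to the members at least 2-fold lower at day 5 alone. This scaling moved the log2 ratios of day 5 over day 2 blastoids by -0.14. A 1.5-fold threshold left 2 members lower in no blastoid library, against 59% of all genes. It put 1 higher in Type I than in Type III, where 16.6% of all genes differed in either direction. A 4-fold threshold left 5 lower from day 2, 9 lower in none and 6 in no pattern, against 2.95%, 88.7% and 4.94% of all genes. It left 2 lower in Type I than in Type III, where 1.1% of all genes differed in either direction. RLE scaling moved Tdgf1 to the members at least 2-fold lower at day 5 alone and Nr5a2 to no pattern. Untreated EPSC as the only baseline moved Dppa4 and Klf5 to no pattern and Tdh to the members lower in no blastoid library. T09-treated EPSC as the only baseline moved Klf2 to the members lower from day 2. Values near 0 changed sign with library totals for T09 on Nr5a2 (-0.00121), for day 2 over EPSC on Tdh (0.0437), L1td1 (0.00661) and Zfp296 (0.00728), and for day 5 over day 2 on Lin28a (-0.0981). They did so for T09 on Klf5 with no filter (0.00194), and for day 2 on Tdh (0.0276) and Zfp296 (0.00461) with limma-voom. The cause was not tested. In stage fits without each library in turn, chosen after seeing the data, the lone library of a stage is assumed to vary like the others. The number of members called moved with the library left out in each of the 3 comparisons, and so did the share of all genes called. At day 2 the log2 change ran from -0.12 to 0.33 for Dppa2, -0.0684 to 0.39 for Dppa4, -0.13 to 0.25 for Utf1, -0.32 to 0.37 for Tdh, -0.16 to 0.0624 for L1td1 and -0.40 to 0.40 for Zfp296. At day 5 over day 2 it ran from -0.23 to 1.52 for Dppa3, -1.61 to 0.0344 for Dppa5a and -0.15 to 0.19 for Lin28a. Fbxo15 and Tdh lost their call at day 5 over day 2 in at least 1 such refit.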

Other observations

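Genes of the 2-cell-like state, a rare stem cell state resembling the early embryo, were listed as 10 symbols, of which 7 were in the table. Their summed level was 86.1 CPM in siNr1h2 and 77.6 in siNT day 2 blastoids and 9.33 in Type I and 24.1 in Type III, against 2.67 in T09-treated and 2.75 in untreated EPSC. In T09-treated and untreated ESC it was 11.3 and 22.6 CPM. Zscan4c, a zinc finger gene that marks this state, stood at 26.4 and 25.4 CPM in siNr1h2 and siNT, against 0.602 in EPSC. Zscan4 genes are near-identical copies, so how their reads were split is uncertain.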
